A study of Homo sapiens with 18 samples.

Results

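The genes that duplicate DNA were followed in lung adenocarcinoma cells in which RAD21, a core subunit of cohesin, had been lowered or raised. The set comprised 51 of the 58735 genes counted, chosen by name as genes of DNA replication and S phase. It was split by role into 11 genes of origin licensing, 28 of the replication fork, 4 of nucleotide supply, and 8 of chromatin assembly, repair and control. In both A549 and H358, which are human lung adenocarcinoma lines, RAD21 was knocked down by short hairpin RNA from a lentiviral vector (shRAD21), beside cells that received a control vector (shNC). In A549 RAD21 was also overexpressed (RAD21OE), with EV, the empty vector, as control. There were 6 groups of 3 libraries. How many different hairpins were used, and whether the libraries of a group came from separate cultures, is not stated in the sources used here.

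Replication begins with licensing. The origin recognition complex marks an origin, and CDC6 and CDT1 load the ring of MCM2 to MCM7 on it in G1. In S phase CDC45 and the GINS complex join the ring to form the active helicase. Polymerases then copy the strands, with the sliding clamp PCNA, the clamp loader RFC and the single-strand binding protein RPA, while ribonucleotide reductase, thymidylate synthase and thymidine kinase supply the nucleotides. Many of these genes are transcribed together at the passage into S phase by factors of the E2F family. Cohesin itself is loaded onto chromosomes before S phase, and the sister chromatids are joined as forks pass.

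RAD21 was lower in every library of the knockdowns and higher in every library of the overexpression. A549 shRAD21 libraries had 129, 132 and 101 CPM (counts as a share of the scaled library total), against 257, 253 and 255 CPM in A549 shNC libraries. In H358 the values were 379, 427 and 433 CPM in shRAD21 libraries and 569, 589 and 603 CPM in shNC libraries. In A549 RAD21OE libraries they were 1519.6, 1501 and 1306 CPM, against 195, 209 and 194 CPM in EV libraries. The groups did not overlap in any of the 3 comparisons (exact two-sided permutation p = 0.1 in each, the smallest that 3 against 3 libraries can give). The 12 knockdown libraries held 15155077 to 19277568 counts and the 6 overexpression libraries 13024640 to 14276335. Replicate 3 of A549 shRAD21 and replicate 3 of A549 RAD21OE stood apart from the others of their groups. The median absolute log2 difference was 0.22 to 0.28 in pairs that held either of them, and 0.10 to 0.13 in the other pairs. Of 10 epithelial markers, 8 reached 1 CPM in A549 groups and 9 in H358 groups, whereas the lung lineage factor NKX2-1 was under 1 CPM in every A549 library. The summed epithelial markers were 12553 to 15801 CPM in A549 shRAD21 and 9572 to 10079.9 CPM in A549 shNC, 6108 to 6342 CPM in H358 shRAD21 and 5979 to 6387 CPM in H358 shNC, and 12847 to 16609 CPM in RAD21OE and 11128 to 11418 CPM in EV. For 14 markers of blood, vessel, stroma, liver and red cells the sums were 25.4 to 27.3 CPM in A549 shRAD21 and 25.4 to 30.7 CPM in A549 shNC, 43.6 to 47.7 CPM in H358 shRAD21 and 42.3 to 46.0 CPM in H358 shNC, and 16.2 to 23.3 CPM in RAD21OE and 24.8 to 29.6 CPM in EV. The T cell marker CD3E had no count in any A549 library. The part of these marker differences in the results was not tested.

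The letters that E2F factors are known to bind were searched for in the promoters, to show what sequence the genes share. Of the 51 genes, 44 matched an entry of RefSeq's promoter table (GRCh38.p14), and the 250 bases before the first listed start were searched on both strands for TTTCCCGC, TTTGGCGC, TTTCGCGC and TTTGCCGC. At least 1 of these was present in 15 of the 44 promoters (34.1%), against 2.8% of 27305 promoters of all genes. The 15 were CDT1, MCM3, MCM6 and MCM7 among licensing genes, GINS2, LIG1, PCNA, POLA1, POLA2, POLE and RFC3 at the fork, TYMS in nucleotide supply, and DTL, E2F1 and UHRF1. The letters CCAAT, which the factor NF-Y is known to bind, were present in 59.1% of the 44 promoters and 33.0% of all promoters. Of the 15, MCM6, PCNA and POLA1 could be shown over 100 bases without touching an annotated exon, read 5′ to 3′ on the strand of the gene, with the E2F letters in capitals. MCM6 lies on the minus strand at chr2:135876509-135876608, PCNA on the minus strand at chr20:5126628-5126727, and POLA1 on the plus strand at chrX:24693735-24693834.
MCM6: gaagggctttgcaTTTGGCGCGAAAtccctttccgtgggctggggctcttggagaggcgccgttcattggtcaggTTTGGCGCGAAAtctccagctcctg
PCNA: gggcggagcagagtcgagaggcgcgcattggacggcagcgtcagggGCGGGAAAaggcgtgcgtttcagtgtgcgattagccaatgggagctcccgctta
POLA1: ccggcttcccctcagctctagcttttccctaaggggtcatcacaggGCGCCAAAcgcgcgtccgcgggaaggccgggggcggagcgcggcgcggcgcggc
In the MCM6 stretch each capital run holds an overlapping pair of matches, TTTGGCGC on the strand shown and TTTCGCGC on the other strand, so that the same 12 bases occur at 2 places. The matches in the PCNA and POLA1 stretches lie on the strand opposite to that shown. A match is a description of these letters, and binding was not measured. MCM6 was higher in all 3 comparisons with changed RAD21, PCNA in both knockdowns, and POLA1 was not called in any.

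More of the replication genes rose than fell in each of the 3 comparisons, by small amounts. A gene is called higher or lower at an adjusted p under 0.05 in edgeR's quasi-likelihood test with Benjamini-Hochberg adjustment over all genes tested, and all 51 passed the filter on low counts in both tables. In H358 shRAD21 against shNC 20 of the 51 rose and 0 fell, where 3.78% of all genes tested rose and 4.62% fell. In A549 shRAD21 against shNC 15 rose and 2 fell, against 14.4% and 10.9% of all genes. In A549 RAD21OE against EV 16 rose and 1 fell, against 14.1% and 13.7% of all genes. The median log2 fold change of the 51 was 0.25 in the H358 knockdown, 0.07 in the A549 knockdown and 0.12 in the overexpression, and that of all genes tested was 0.00, 0.00 and -0.01. The largest called change of a replication gene in any of these was 0.54 on the log2 scale, for GINS4 in the overexpression. In bulk RNA, a larger share of cells in S phase and more of each RNA per cell cannot be told apart.

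**Figure D1:**
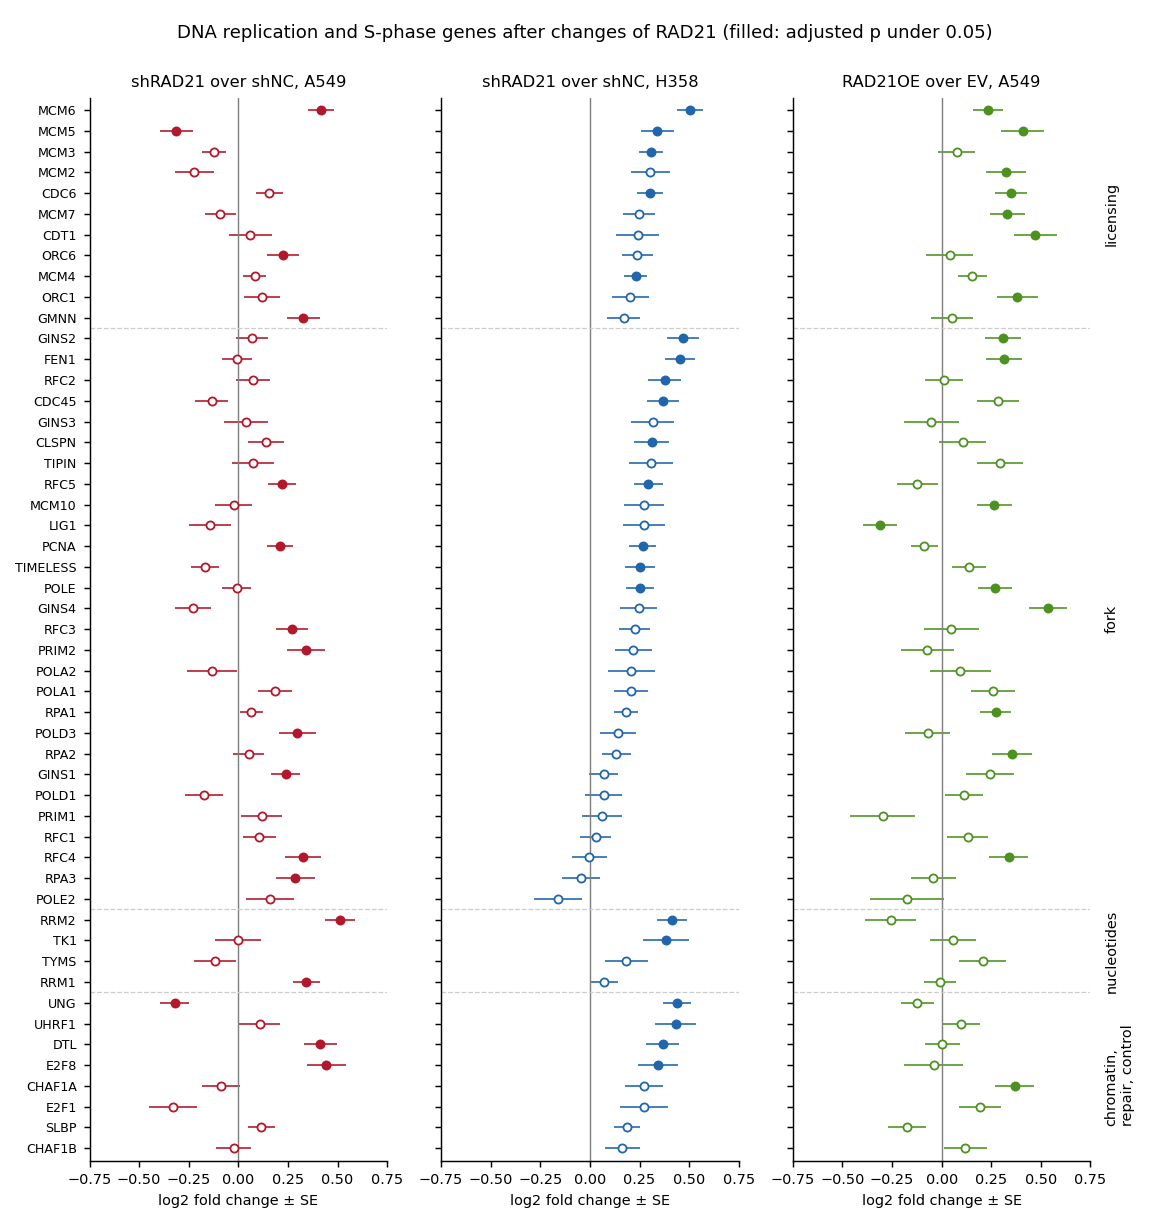
Log2 fold change (x axis) of each of the 51 genes (rows, grouped by role) in the A549 knockdown, the H358 knockdown and the A549 overexpression; points are estimates of edgeR, bars are ± 1 SE, and filled points are called at an adjusted p under 0.05. In the H358 knockdown 48 of 51 points lie above 0, while the A549 knockdown and the overexpression have points on both sides.

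The shift in H358 was seen in each library. Against the mean of the shNC libraries, the median of the 51 genes was 0.24, 0.28 and 0.27 (log2) in the 3 H358 shRAD21 libraries, and the H358 shNC libraries themselves ranged between -0.07 and 0.04. The A549 shRAD21 libraries had medians of 0.05, 0.06 and 0.14, and A549 shNC libraries lay between -0.02 and 0.03. The RAD21OE libraries had 0.11, 0.14 and 0.25, and EV libraries lay between -0.05 and 0.03. All H358 shRAD21 libraries were above all H358 shNC libraries in 36 of the 51 genes and below them in 0, where 18% and 18.1% of all genes did so. The corresponding numbers were 21 and 5 in the A549 knockdown, where 18.3% and 14.4% of all genes did so, and 19 and 4 in the overexpression, where 22.9% and 22.6% did so.

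**Figure D2:**
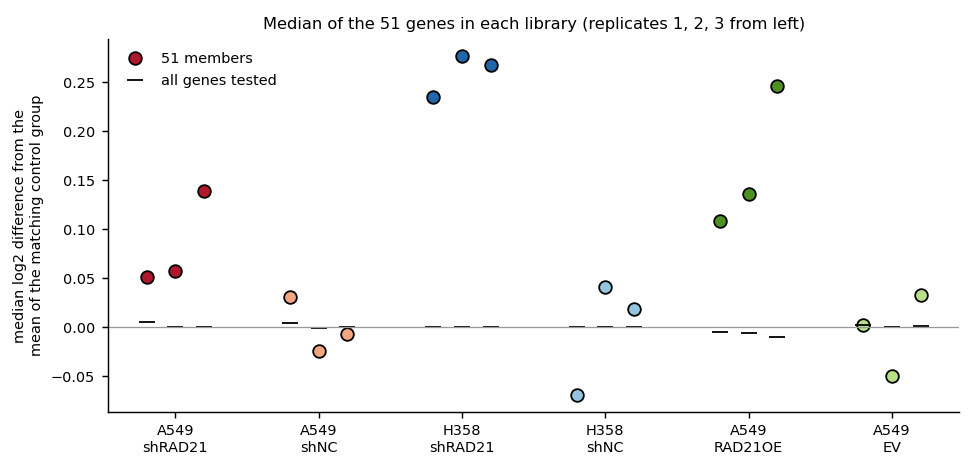
Median log2 difference of the 51 genes from the mean of the control libraries (y axis) in each library, with shRAD21 or RAD21OE left of its control; each point is 1 library. The 3 H358 shRAD21 libraries lie at 0.24, 0.28 and 0.27, and replicate 3 has the highest value in A549 shRAD21 (0.14) and in A549 RAD21OE (0.25).

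Among the licensing genes, the helicase subunit MCM6 was the one that rose in all 3 comparisons. It had 183, 191 and 183 CPM in A549 shRAD21 libraries, against 138, 134 and 145 CPM in A549 shNC libraries (log2 fold change 0.42 with SE 0.07, adjusted p = 0.000124). In H358 it had 163, 178 and 177 CPM in H358 shRAD21 libraries, against 113, 126 and 127 CPM in H358 shNC libraries (log2 fold change 0.50 with SE 0.07, adjusted p = 0.000116). In the overexpression it had 156, 159.7 and 160.0 CPM in A549 RAD21OE libraries, against 131, 135 and 139 CPM in A549 EV libraries (log2 fold change 0.23 with SE 0.07, adjusted p = 0.0323). No group overlapped its control. The call in the overexpression was lost when any 1 of the 3 EV libraries or RAD21OE replicate 2 was left out and when low counts were not filtered, whereas the calls in both knockdowns held under all 12 alternatives tried for each.

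MCM5, another subunit of the same ring, fell in the A549 knockdown and rose in the other comparisons. It had 126, 122 and 161 CPM in A549 shRAD21 libraries, against 173, 164 and 172 CPM in A549 shNC libraries (log2 fold change -0.31 with SE 0.08, adjusted p = 0.0109). H358 values were 166, 166 and 161 CPM in H358 shRAD21 libraries, against 125, 133 and 132 CPM in H358 shNC libraries (log2 fold change 0.34 with SE 0.08, adjusted p = 0.0171). With RAD21 raised, it had 168, 153 and 207 CPM in A549 RAD21OE libraries, against 135, 124 and 139.7 CPM in A549 EV libraries (log2 fold change 0.41 with SE 0.11, adjusted p = 0.0132). The groups did not overlap in any of the 3 comparisons, and the difference between the knockdowns was itself called (0.65 ± 0.12 SE on the log2 scale, H358 minus A549, adjusted p = 0.000988). Replicate 3 of A549 shRAD21 lay nearest to the controls. The fall in A549 was not called without shRAD21 replicate 1, without replicate 2 or with the 6 A549 libraries alone. The rise in H358 was not called when any 1 of the 6 H358 libraries was left out, and the rise in the overexpression was not called without EV replicate 1 or EV replicate 2.

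In the A549 knockdown the 6 subunits of the ring had 1 call in each direction (16.7% each, against 14.4% and 10.9% of all genes). With RAD21 lowered in H358, all 6 lay above their controls in every library, and 4 of them rose (MCM3, MCM4, MCM5 and MCM6). Over all genes 18% lay above their controls there and 3.78% rose. MCM3 had 260.2, 276 and 271 CPM in H358 shRAD21 libraries, against 218, 223 and 211 CPM in H358 shNC libraries (log2 fold change 0.31 with SE 0.06, adjusted p = 0.00411), and its log2 fold change in the A549 knockdown was -0.12 (adjusted p = 0.163). MCM4 in the H358 knockdown had a log2 fold change of 0.23 (adjusted p = 0.0174). MCM2 had 74.6, 79.9 and 106 CPM in A549 shRAD21 libraries, against 101, 104 and 97.5 CPM in A549 shNC libraries, where the groups overlapped and the gene was not called (log2 fold change -0.22, adjusted p = 0.118). It was called lower at -0.39 without A549 shRAD21 replicate 3 and at -0.25 with no filter, and was not called, at -0.07, with a correction of each library for GC content and length. In H358 MCM2 had 175, 181 and 184 CPM in H358 shRAD21 libraries, against 138, 159 and 141 CPM in H358 shNC libraries, without overlap, and was not called either (log2 fold change 0.30, adjusted p = 0.0631). There it was called higher with DESeq2's Wald test, with no filter or with the 6 H358 libraries alone. With the correction for GC content it was called higher too, at 0.23. In the overexpression MCM2 rose, with 89.9, 89.5 and 111 CPM in A549 RAD21OE libraries, against 76.9, 73.6 and 81.9 CPM in A549 EV libraries (log2 fold change 0.32 with SE 0.10, adjusted p = 0.0291). Without RAD21OE replicate 3 that rise was 0.21 and still called. MCM7 rose in the overexpression as well (log2 fold change 0.33, adjusted p = 0.0144) and was not called in the knockdowns. In H358 it was called higher under the same alternatives as MCM2, at 0.17 with the correction for GC content. In A549 it was called lower, at -0.22, without shRAD21 replicate 3. Reads of MCM2 can be shared with a gene on the other strand over 23.6% of its exon bases, and whether counting used the strand is not stated.

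Of the factors that load the ring, CDC6, CDT1 and ORC1 rose in the overexpression, and CDC6 also rose in the H358 knockdown. CDC6, an ATPase that loads the ring, had 107, 113 and 107 CPM in A549 RAD21OE libraries, against 81.6, 86.7 and 88.1 CPM in A549 EV libraries (log2 fold change 0.35 with SE 0.08, adjusted p = 0.0067). CDT1, which brings the ring to the origin, had 53.7, 50.7 and 61.1 CPM in A549 RAD21OE libraries, against 41.7, 35.1 and 42.5 CPM in A549 EV libraries (log2 fold change 0.47 with SE 0.11, adjusted p = 0.00686). ORC1, the largest subunit of the origin recognition complex, had a log2 fold change of 0.38 (adjusted p = 0.0147). With RAD21 lowered in H358, CDC6 had 79.3, 80.0 and 82.3 CPM in H358 shRAD21 libraries, against 60.6, 68.4 and 67.0 CPM in H358 shNC libraries (log2 fold change 0.30 with SE 0.07, adjusted p = 0.00816), and in none of these did the groups overlap. In the A549 knockdown CDC6, CDT1 and ORC1 were not called, with log2 fold changes of 0.16, 0.06 and 0.12. With the correction for GC content CDT1 rose there too, with 0.29, which is also its corrected value in the overexpression.

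Geminin and ORC6 were called in the A549 knockdown. GMNN encodes geminin, the inhibitor that binds CDT1 and keeps origins from firing again within a cycle. It had 42.6, 38.1 and 37.1 CPM in A549 shRAD21 libraries, against 30.9, 29.8 and 33.4 CPM in A549 shNC libraries (log2 fold change 0.33 with SE 0.08, adjusted p = 0.00758). ORC6, the smallest subunit of the origin recognition complex, had 48.5, 48.2 and 53.2 CPM in A549 shRAD21 libraries, against 39.3, 42.5 and 46.3 CPM in A549 shNC libraries (log2 fold change 0.23 with SE 0.08, adjusted p = 0.0466). Neither overlapped its controls. Their log2 fold changes in the H358 knockdown were 0.17 and 0.24, and in the overexpression 0.05 and 0.04, none of them called. In all, 3 of the 11 licensing genes rose and 1 fell in the A549 knockdown, 5 rose in the H358 knockdown and 7 rose in the overexpression. The shares that rose were 27.3%, 45.5% and 63.6%, against 14.4%, 3.78% and 14.1% of all genes. The share that fell in the A549 knockdown, 9.09%, is near the 10.9% of all genes.

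**Figure D3:**
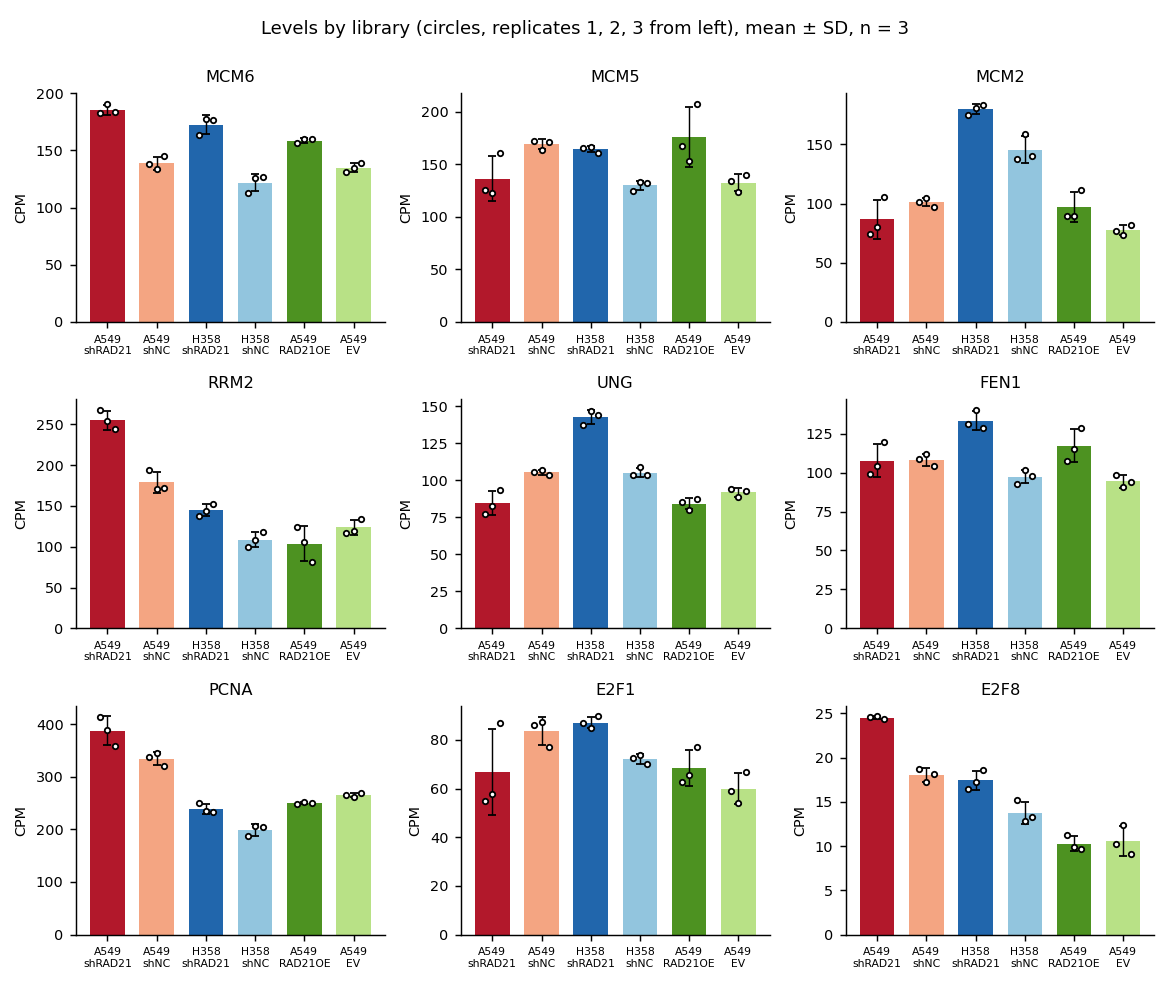
Level in CPM (y axis, from 0) of MCM6, MCM5, MCM2, RRM2, UNG, FEN1, PCNA, E2F1 and E2F8 in each of the 18 libraries, with shRAD21 or RAD21OE left of its control. Circles are libraries, bars are group means and error bars are ± SD. MCM5 and UNG lie below the controls in A549 shRAD21 and above them in H358 shRAD21.

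CDC45, the 4 GINS genes and MCM10 turn the loaded ring into an active helicase. Of these, 1 rose in the A549 knockdown, 2 in the H358 knockdown and 3 in the overexpression, and none fell. Over all genes 14.4%, 3.78% and 14.1% rose, and the A549 count is near its share. GINS2, a subunit of the GINS complex, had 62.4, 69.2 and 62.8 CPM in H358 shRAD21 libraries, against 44.2, 50.6 and 45.3 CPM in H358 shNC libraries (log2 fold change 0.47 with SE 0.08, adjusted p = 0.00122). CDC45, the third part of the helicase, had 41.5, 42.9 and 44.9 CPM in H358 shRAD21 libraries, against 34.0, 34.7 and 31.3 CPM in H358 shNC libraries (log2 fold change 0.37 with SE 0.08, adjusted p = 0.00762). Neither overlapped its controls. In the A549 knockdown their log2 fold changes were 0.07 and -0.13, neither called, while GINS1 rose (log2 fold change 0.24, adjusted p = 0.0215), a call that was lost with the correction for GC content. GINS4, another GINS subunit, had the largest called change in the overexpression, with 50.7, 53.3 and 53.9 CPM in A549 RAD21OE libraries, against 34.2, 35.5 and 39.3 CPM in A549 EV libraries (log2 fold change 0.54 with SE 0.10, adjusted p = 0.0015). It was the replication gene whose call in the overexpression held under all 11 alternatives. GINS4 shares 23.6% of its exon bases with a gene on the other strand. GINS2 rose there too (log2 fold change 0.31, adjusted p = 0.0256), as did MCM10, which helps activate the helicase (log2 fold change 0.27, adjusted p = 0.0404). GINS3 was not called in any of the 3 comparisons.

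The clamp PCNA rose in both knockdowns. It had 413, 389 and 358.4 CPM in A549 shRAD21 libraries, against 337, 345 and 321 CPM in A549 shNC libraries (log2 fold change 0.21 with SE 0.07, adjusted p = 0.0236). The H358 values were 249, 234 and 233 CPM in H358 shRAD21 libraries, against 187, 206 and 204 CPM in H358 shNC libraries (log2 fold change 0.26 with SE 0.07, adjusted p = 0.0176). With RAD21 raised it had 249, 251 and 249 CPM in A549 RAD21OE libraries, against 266, 262 and 268 CPM in A549 EV libraries, all RAD21OE libraries below all EV libraries, and was not called (log2 fold change -0.09, adjusted p = 0.372). The A549 call of PCNA held under 6 of 12 alternatives, being lost with no filter, with the 6 A549 libraries alone, and without replicate 1 or 3 of shNC or replicate 1 or 2 of shRAD21. The H358 call was lost without replicate 1 of shRAD21 or of shNC. Of the clamp loader, the small subunits RFC3, RFC4 and RFC5 rose in the A549 knockdown. RFC4 had 50.2, 41.9 and 38.2 CPM in A549 shRAD21 libraries, against 33.7, 34.5 and 35.8 CPM in A549 shNC libraries (log2 fold change 0.33 with SE 0.09, adjusted p = 0.0128). RFC3 had 86.2, 87.0 and 75.0 CPM in A549 shRAD21 libraries, against 68.99, 65.8 and 70.9 CPM in A549 shNC libraries (log2 fold change 0.27 with SE 0.08, adjusted p = 0.0181). In neither did the groups overlap. RFC5 rose in both knockdowns, with log2 fold changes of 0.22 in A549 and 0.29 in H358 (adjusted p = 0.0312 and 0.0146). RFC2 rose in the H358 knockdown (log2 fold change 0.38, adjusted p = 0.00774), RFC4 in the overexpression (log2 fold change 0.34, adjusted p = 0.0239), and the large subunit RFC1 was not called in any. The A549 calls of RFC3 and RFC5 were lost with the correction for GC content, and that of RFC4 held, although RFC4 was not called, at 0.21, without shRAD21 replicate 1. RFC5 shares 10.65% of its exon bases with a gene on the other strand.

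The 3 subunits of RPA, which coats single-stranded DNA, were called in different comparisons. RPA2 had 37.4, 42.0 and 41.7 CPM in A549 RAD21OE libraries, against 30.3, 32.8 and 31.6 CPM in A549 EV libraries, without overlap (log2 fold change 0.36 with SE 0.10, adjusted p = 0.0189). RPA1 also rose in the overexpression (log2 fold change 0.27, adjusted p = 0.0222), and RPA3 rose in the A549 knockdown (log2 fold change 0.29, adjusted p = 0.0368), a call lost with the correction for GC content. In the H358 knockdown none of the 3 was called. The call of RPA2 was lost when any 1 of the 3 EV libraries or RAD21OE replicate 2 was left out.

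Of the polymerase and primase genes, PRIM2, POLD3 and POLE were called. Over all genes 14.4% rose in the A549 knockdown, 3.78% in the H358 knockdown and 14.1% in the overexpression. PRIM2, the large primase subunit, had 24.9, 22.0 and 20.7 CPM in A549 shRAD21 libraries, against 17.9, 18.3 and 17.1 CPM in A549 shNC libraries, without overlap (log2 fold change 0.34 with SE 0.10, adjusted p = 0.0146), and this call too was lost with the correction for GC content. POLD3, an accessory subunit of the lagging-strand polymerase delta, also rose in the A549 knockdown (log2 fold change 0.30, adjusted p = 0.0225). POLE, the catalytic subunit of the leading-strand polymerase epsilon, rose in the H358 knockdown (log2 fold change 0.25, adjusted p = 0.0375) and in the overexpression (log2 fold change 0.27, adjusted p = 0.0359). POLA1, POLA2, PRIM1, POLD1 and POLE2 were not called in any of the 3. POLA2 and PRIM1 share 35.1% and 16.2% of their exon bases with another gene on the same strand. The lowest count of any of the 51 genes in a library was 107, for POLA2 in an EV library, and the highest 9444, for MCM4 in an H358 shRAD21 library.

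The enzymes that finish the lagging strand went different ways with RAD21 raised. FEN1, the nuclease that trims flaps, had 108, 115 and 129 CPM in A549 RAD21OE libraries, against 98.6, 90.5 and 93.9 CPM in A549 EV libraries (log2 fold change 0.31 with SE 0.09, adjusted p = 0.0192). LIG1, the ligase that seals the nicks, was the 1 gene of the 51 that fell, with 76.2, 79.4 and 89.2 CPM in A549 RAD21OE libraries, against 100.2, 101 and 102 CPM in A549 EV libraries (log2 fold change -0.31 with SE 0.09, adjusted p = 0.018). Neither overlapped its controls. The H358 values of FEN1 were 131, 140.1 and 129 CPM in H358 shRAD21 libraries, against 92.8, 102 and 97.9 CPM in H358 shNC libraries, without overlap (log2 fold change 0.45 with SE 0.07, adjusted p = 0.000875), and LIG1 was not called (log2 fold change 0.27, adjusted p = 0.135). In the A549 knockdown neither was called, with log2 fold changes of -0.01 for FEN1 and -0.14 for LIG1. Both calls in the overexpression were lost when any 1 of the 3 EV libraries or RAD21OE replicate 2 was left out.

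Of the fork protection genes, TIMELESS and CLSPN rose in the H358 knockdown. TIMELESS, which stabilises the fork with TIPIN, had a log2 fold change of 0.25 (adjusted p = 0.0418), and CLSPN, the checkpoint mediator claspin, 0.31 (adjusted p = 0.0373). TIPIN was not called in any of the 3 comparisons. In all, 8 of the 28 fork genes rose in the A549 knockdown, 9 rose in the H358 knockdown, and 8 rose and 1 fell in the overexpression. The shares that rose were 28.6%, 32.1% and 28.6%, against 14.4%, 3.78% and 14.1% of all genes. In the overexpression 3.57% fell, against 13.7% of all genes.

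In nucleotide supply, RRM2 rose in both knockdowns. RRM2 encodes the small subunit of ribonucleotide reductase, whose level is known to limit the enzyme in S phase. It had 268, 254 and 244 CPM in A549 shRAD21 libraries, against 194, 171 and 172 CPM in A549 shNC libraries (log2 fold change 0.51 with SE 0.08, adjusted p = 5.56e-05). In H358 it had 138, 144 and 153 CPM in H358 shRAD21 libraries, against 99.4, 108 and 118 CPM in H358 shNC libraries (log2 fold change 0.42 with SE 0.08, adjusted p = 0.00197). In the overexpression it had 124, 106 and 80.7 CPM in A549 RAD21OE libraries, against 117, 119 and 135 CPM in A549 EV libraries, where the groups overlapped, and was not called (log2 fold change -0.26, adjusted p = 0.152). Both knockdown calls held under all 12 alternatives. RRM2 shares 20.2% of its exon bases with another gene on the same strand.

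The large subunit RRM1 and the thymidine kinase TK1 were each called in 1 line. RRM1 had 233, 238 and 213 CPM in A549 shRAD21 libraries, against 182, 182 and 175 CPM in A549 shNC libraries, without overlap (log2 fold change 0.34 with SE 0.07, adjusted p = 0.00105), and a log2 fold change of 0.07 in the H358 knockdown (adjusted p = 0.596). TK1 had 236, 244 and 236 CPM in H358 shRAD21 libraries, against 176, 191 and 180.2 CPM in H358 shNC libraries, without overlap (log2 fold change 0.39 with SE 0.12, adjusted p = 0.0471), and was not called in the A549 knockdown (adjusted p = 1). That value turned with the setting, being called lower at -0.23 without A549 shRAD21 replicate 3 and higher at 0.23 with the correction for GC content. The difference between the knockdowns was not called for RRM1 (-0.27, adjusted p = 0.0614) or TK1 (0.39, adjusted p = 0.114). Without A549 shRAD21 replicate 3 both were called, at -0.32 for RRM1 and 0.61 for TK1, and with the correction neither was, at -0.14 and 0.03. TYMS, which makes thymidylate, was not called in any of the 3, and none of the 4 nucleotide genes was called in the overexpression.

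UNG, the nuclear and mitochondrial uracil DNA glycosylase that removes uracil from DNA, went opposite ways in the 2 knockdowns. It had 77.4, 82.6 and 93.3 CPM in A549 shRAD21 libraries, against 106, 107 and 104 CPM in A549 shNC libraries (log2 fold change -0.32 with SE 0.07, adjusted p = 0.00289). In H358 libraries it had 138, 147 and 144 CPM in H358 shRAD21 libraries, against 103, 109 and 104 CPM in H358 shNC libraries (log2 fold change 0.44 with SE 0.07, adjusted p = 0.000727). The groups did not overlap in either line, and both calls held under all 12 alternatives. The difference between the lines was 0.76 ± 0.10 SE on the log2 scale (H358 minus A549, adjusted p = 4.44e-05). In the overexpression UNG had 85.3, 80.0 and 87.5 CPM in A549 RAD21OE libraries, against 93.9, 88.5 and 92.9 CPM in A549 EV libraries, below EV in every library, and was not called (log2 fold change -0.12, adjusted p = 0.284).

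DTL, the substrate adaptor of the ubiquitin ligase that destroys CDT1 in S phase, rose in both knockdowns. It had 87.4, 90.7 and 78.0 CPM in A549 shRAD21 libraries, against 65.9, 62.8 and 63.6 CPM in A549 shNC libraries (log2 fold change 0.41 with SE 0.08, adjusted p = 0.000976). The H358 values were 36.1, 41.9 and 39.6 CPM in H358 shRAD21 libraries, against 28.1, 32.0 and 31.2 CPM in H358 shNC libraries (log2 fold change 0.37 with SE 0.09, adjusted p = 0.0121). No groups overlapped. Its log2 fold change in the overexpression was 0.00 (adjusted p = 0.978).

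Of the E2F factors in the set, E2F8 rose in both knockdowns and E2F1 was not called. E2F8, a repressor of E2F targets, had 24.5, 24.6 and 24.4 CPM in A549 shRAD21 libraries, against 18.7, 17.2 and 18.1 CPM in A549 shNC libraries (log2 fold change 0.44 with SE 0.10, adjusted p = 0.00229). In H358 the values were 16.4, 17.3 and 18.6 CPM in H358 shRAD21 libraries, against 15.2, 12.8 and 13.3 CPM in H358 shNC libraries (log2 fold change 0.34 with SE 0.10, adjusted p = 0.0384). In the overexpression it had 11.2, 9.89 and 9.68 CPM in A549 RAD21OE libraries, against 10.2, 12.4 and 9.11 CPM in A549 EV libraries, with overlap (log2 fold change -0.04, adjusted p = 0.866). E2F1, an activator of S-phase genes, had 55.0, 57.9 and 87.1 CPM in A549 shRAD21 libraries, against 86.3, 87.5 and 77.2 CPM in A549 shNC libraries (log2 fold change -0.33 with SE 0.12, adjusted p = 0.0561), where replicate 3 of shRAD21 lay within the shNC range. Without that library E2F1 was called lower at -0.57, with no filter it was called lower at -0.36, and with the correction for GC content it was not called, at -0.10. In H358 it had 86.8, 84.8 and 89.6 CPM in H358 shRAD21 libraries, against 72.7, 73.6 and 70.0 CPM in H358 shNC libraries, without overlap (log2 fold change 0.27 with SE 0.12, adjusted p = 0.184). There E2F1 was called higher with no filter, with the 6 H358 libraries alone, and with the correction for GC content, at 0.15. In the overexpression it had 62.9, 65.6 and 77.0 CPM in A549 RAD21OE libraries, against 59.1, 54.0 and 66.7 CPM in A549 EV libraries, with overlap (log2 fold change 0.19 with SE 0.11, adjusted p = 0.198).

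Of the chromatin genes, UHRF1 and CHAF1A were called once each. UHRF1, which brings the maintenance DNA methyltransferase to new DNA, had 105, 113 and 118 CPM in H358 shRAD21 libraries, against 78.8, 89.8 and 80.2 CPM in H358 shNC libraries, without overlap (log2 fold change 0.43 with SE 0.10, adjusted p = 0.0136). CHAF1A, the large subunit of the histone chaperone that assembles nucleosomes behind the fork, had 58.6, 63.6 and 67.7 CPM in A549 RAD21OE libraries, against 50.5, 44.7 and 52.0 CPM in A549 EV libraries, without overlap (log2 fold change 0.37 with SE 0.10, adjusted p = 0.0141). CHAF1B, its partner, and SLBP, which binds the stem-loop of histone mRNA, were not called in any of the 3 comparisons. In all, 2 of these 8 genes rose and 1 fell in the A549 knockdown, 4 rose in the H358 knockdown and 1 rose in the overexpression. Over all genes 14.4% rose and 10.9% fell, 3.78% rose, and 14.1% rose, in the same order. The fall in the A549 knockdown and the rise in the overexpression, 12.5% of the 8 genes each, are near those shares.

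Across the 3 comparisons, 39 of the 51 genes were called at least once and 12 in none. Those in none were CHAF1B, E2F1, GINS3, POLA1, POLA2, POLD1, POLE2, PRIM1, RFC1, SLBP, TIPIN and TYMS. MCM6 and MCM5 were called in all 3. Such counts across the 3 comparisons were not made over all genes, so they need not be particular to the set. Of all genes 14.4% rose and 10.9% fell in the A549 knockdown, and 3.78% and 4.62% in the H358 knockdown. In the overexpression 14.1% rose and 13.7% fell. The 2 knockdowns, whose libraries are separate, shared 6 genes that rose, which were DTL, E2F8, MCM6, PCNA, RFC5 and RRM2. They made up 40% of the 15 that rose in A549 and 30% of the 20 that rose in H358. Of all 51 genes 39.2% rose in H358 and 29.4% in A549, so the number shared is near that of 2 unrelated lists. The A549 knockdown and the overexpression shared MCM6 and RFC4 among genes that rose. This pair made up 13.3% of the 15 in A549 and 12.5% of the 16 in the overexpression. Of all 51 genes 31.4% rose in the overexpression and 29.4% in the A549 knockdown, so fewer were shared than by 2 unrelated lists. That shortfall was not tested. For MCM5 the calls were opposite. The H358 knockdown and the overexpression shared 6 that rose, which were CDC6, FEN1, GINS2, MCM5, MCM6 and POLE. They made up 30% of the 20 in H358 and 37.5% of the 16 in the overexpression. Of all 51 genes 31.4% rose in the overexpression, so this number is near that of 2 unrelated lists, as with the 2 knockdowns. The knockdown and overexpression calls came from separate tables and control libraries.

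The number called in A549 depended on single libraries. For this and the other settings below, the numbers called over all genes were not set beside these counts. The shifts in number therefore need not be particular to the replication genes. Without shRAD21 replicate 3 the A549 knockdown gave 19 higher and 13 lower, and without replicate 1 or replicate 2 of shRAD21 it gave 6 and 1 or 8 and 1. Without shNC replicate 1 it gave 8 and 2. With the 6 A549 libraries fitted alone it gave 5 and 1. In the overexpression the number called was 2 without EV replicate 1, 3 without EV replicate 2, 6 without EV replicate 3 and 8 without RAD21OE replicate 2. In the H358 knockdown it was 8 without shNC replicate 1, 11 without shNC replicate 3, and 10 without replicate 2 or replicate 3 of shRAD21, with 0 lower each time. Calls that held under every alternative were those of DTL, E2F8, MCM6, RRM1, RRM2 and UNG in the A549 knockdown and of FEN1, GINS2, MCM3, MCM6, RRM2 and UNG in the H358 knockdown. Among the least stable, RFC5 held under 4 and GINS1, ORC6 and RPA3 under 5 of 12 in the A549 knockdown, CLSPN, E2F8, POLE, TIMELESS and TK1 under 5 of 12 in the H358 knockdown, and MCM10 under 5 of 11 in the overexpression.

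The fold changes of the replication genes in the A549 knockdown ran with the GC content of their exons. The GC content of the 51 genes ranged between 39.1% (RFC3) and 65% (POLD1), with a median of 48.1%, and that of all genes tested in the knockdown had a median of 48.4%. Across the 51 genes, Spearman's rho between log2 fold change and GC content was -0.70 in the A549 knockdown, 0.27 in the H358 knockdown and 0.32 in the overexpression. Over all genes it was -0.33, 0.18 and 0.32. The genes share libraries and are not independent replicates, so these values carry no test. Taken library by library, A549 shRAD21 had a rho of -0.78, -0.80 and 0.01, H358 shRAD21 of 0.38, 0.14 and 0.26, and RAD21OE of -0.06, -0.01 and 0.63. The 15 genes that rose in the A549 knockdown had a median GC content of 43.6%, and the other 36 had 50.7%.

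With each library's trend on GC content and length taken out, rho across the 51 genes was -0.20, -0.06 and -0.14. The A549 knockdown then gave 15 genes higher and 3 lower. MCM6, RRM2, RRM1, DTL and E2F8 were still higher and UNG and MCM5 still lower. GINS1, PRIM2, RFC3, RFC5 and RPA3 were no longer called, and CDT1, GINS4, RFC2, SLBP, TK1 and UHRF1 were added, GINS4 as lower. The H358 knockdown gave 35 higher and 0 lower, and the overexpression 21 higher and 4 lower, the lower ones being LIG1, RRM2, SLBP and UNG. Added in the H358 knockdown were CHAF1A, E2F1, GINS3, GINS4, LIG1, MCM10, MCM2, MCM7, ORC6, POLA1, POLD3, PRIM2, RFC3, RPA1 and TIPIN. In the overexpression the corrected values were 0.18 for MCM2, 0.19 for FEN1 and 0.23 for CHAF1A, and in the A549 knockdown -0.19 for MCM5, all still called.

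**Figure D4:**
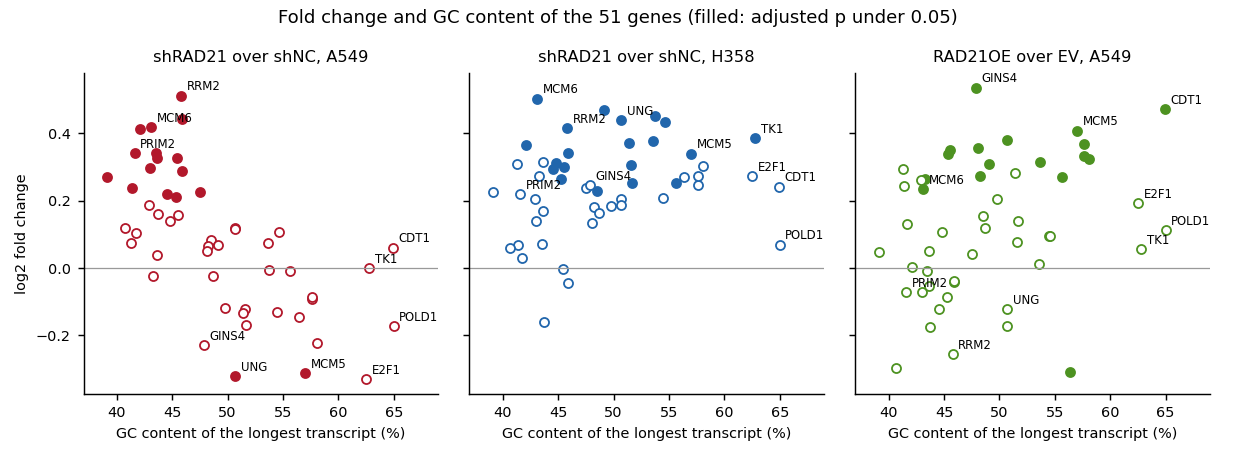
Log2 fold change (y axis) against the GC content of the exons in percent (x axis) for the 51 genes in the A549 knockdown, the H358 knockdown and the A549 overexpression; each point is a gene. The points slope down in the A549 knockdown (rho -0.70) and slope weakly up in the others (0.27 and 0.32).

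The response to the knockdown differed between the lines for 11 of the 51 genes, all higher in H358 relative to A549, where 7.61% of all genes differed in that direction and 9.94% in the other. RAD21 itself was lowered less in H358 than in A549, with log2 fold changes of -0.51 and -1.08, and the part of that gap in the responses was not tested. The 11 comprised 4 subunits of the MCM ring, namely MCM2, MCM3, MCM5 and MCM7, the fork genes CDC45, FEN1, GINS2, GINS4 and TIMELESS, and UNG and E2F1. The largest was UNG and the next MCM5, both given above. E2F1 differed by 0.60 (adjusted p = 0.0218), although it was called in neither line. MCM3 differed by 0.43 (adjusted p = 0.00234), CDC45 by 0.50 (adjusted p = 0.00554), FEN1 by 0.46 (adjusted p = 0.00606), and TIMELESS by 0.42 (adjusted p = 0.00919). For TIMELESS the A549 values were 151, 163 and 176 CPM in A549 shRAD21 libraries, against 186, 175 and 189.7 CPM in A549 shNC libraries, and the H358 values were 95.8, 96.4 and 96.6 CPM in H358 shRAD21 libraries, against 79.7, 87.5 and 75.1 CPM in H358 shNC libraries. The A549 groups overlapped and the H358 groups did not. MCM6, RRM2, PCNA, DTL and E2F8, which rose in both lines, had differences of 0.09, -0.10, 0.05, -0.05 and -0.10, none called. The difference between the lines also ran with GC content across the 51 genes, with rho 0.71, and 0.15 after the correction. Without A549 shRAD21 replicate 3, 23 genes were higher and 6 lower, and without A549 shNC replicate 2, 7 were higher and 0 lower.

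More of the genes were called between the lines themselves than in any comparison of RAD21, which also holds over all genes. In H358 shNC against A549 shNC 11 of the 51 were higher (21.6%) and 23 lower (45.1%), where 39.1% of all genes were higher and 36.8% lower. The median log2 fold change was -0.15, and 0.05 over all genes. Per kilobase of exon, PCNA was the highest in both lines, with 135 ± 7.19 CPM per kb in H358 shNC and 227 ± 8.34 CPM per kb in A549 shNC (SD, n = 3 each). TK1 came next, with 98.1 ± 4.11 CPM per kb in H358 shNC and 114 ± 7.33 CPM per kb in A549 shNC. The lowest in H358 shNC were POLA2 and GINS3, with 2.66 ± 0.144 and 2.51 ± 0.062 CPM per kb, which were within their spread of each other. In A549 shNC GINS3 had 2.75 ± 0.198 and POLA2 2.09 ± 0.120 CPM per kb. Between these ends MCM7, MCM3 and MCM4 were among the highest in A549 shNC, where MCM3 and MCM4 had 46.5 ± 2.39 and 46.4 ± 0.827 CPM per kb, also within their spread.

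Several fork genes differed between the lines. Of the 28 fork genes 25% were higher and 35.7% lower in H358 shNC, against 39.1% and 36.8% of all genes. RFC1 had 148, 158 and 162 CPM in H358 shNC libraries, against 62.2, 59.5 and 60.1 CPM in A549 shNC libraries (log2 fold change 1.36 with SE 0.08, adjusted p = 2.44e-11). MCM10 had 26.5, 31.1 and 30.5 CPM in H358 shNC libraries, against 79.1, 68.98 and 76.4 CPM in A549 shNC libraries (log2 fold change -1.35 with SE 0.10, adjusted p = 3.9e-10). TIMELESS, whose values are given above, was lower in H358 (log2 fold change -1.18, adjusted p = 4.37e-11). RPA1 was lower and RPA2 higher, although both belong to 1 complex. RPA1 had 98.6, 96.3 and 96.6 CPM in H358 shNC libraries, against 195, 200.4 and 200.2 CPM in A549 shNC libraries (log2 fold change -1.03 with SE 0.06, adjusted p = 1.03e-11). RPA2 had 71.5, 76.8 and 72.4 CPM in H358 shNC libraries, against 41.8, 41.0 and 36.2 CPM in A549 shNC libraries (log2 fold change 0.89 with SE 0.07, adjusted p = 3.13e-09). RFC4 had 42.7, 42.7 and 42.8 CPM in H358 shNC libraries, against 33.7, 34.5 and 35.8 CPM in A549 shNC libraries (log2 fold change 0.30 with SE 0.09, adjusted p = 0.00545). PCNA was lower (log2 fold change -0.75, adjusted p = 7.07e-09). No groups overlapped in any of these.

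Of the other roles, 3 of the 4 nucleotide genes (75%) were lower in H358, against 36.8% of all genes. RRM1 had 100.2, 108 and 114 CPM in H358 shNC libraries, against 182, 182 and 175 CPM in A549 shNC libraries (log2 fold change -0.74 with SE 0.07, adjusted p = 1.5e-08). RRM2 was lower as well (log2 fold change -0.72, adjusted p = 8.3e-08). TYMS had 34.7, 41.4 and 36.3 CPM in H358 shNC libraries, against 61.4, 56.5 and 58.5 CPM in A549 shNC libraries (log2 fold change -0.65 with SE 0.11, adjusted p = 2.59e-05), with 46.6% of its exon bases shared with a gene on the other strand. Among licensing genes ORC1 had 24.0, 28.4 and 30.0 CPM in H358 shNC libraries, against 51.4, 52.7 and 54.6 CPM in A549 shNC libraries (log2 fold change -0.95 with SE 0.09, adjusted p = 3.2e-08). CDC6 had 60.6, 68.4 and 67.0 CPM in H358 shNC libraries, against 99.4, 95.6 and 96.8 CPM in A549 shNC libraries (log2 fold change -0.57 with SE 0.07, adjusted p = 2.96e-07). In the MCM ring MCM2, MCM3 and MCM4 were higher and MCM5, MCM6 and MCM7 lower. These shares, 50% each, are near the 39.1% and 36.8% of all genes. The call of MCM6 was lost with the correction for GC content and length, at -0.11. It was also lost without A549 shNC replicate 3 or H358 shNC replicate 1. MCM4 had 421, 444 and 436 CPM in H358 shNC libraries, against 324, 317 and 329 CPM in A549 shNC libraries (log2 fold change 0.42 with SE 0.06, adjusted p = 2.26e-06), and MCM7 had 288, 309 and 277 CPM in H358 shNC libraries, against 379, 386 and 371 CPM in A549 shNC libraries (log2 fold change -0.38 with SE 0.08, adjusted p = 0.000327). MCM3 had 218, 223 and 211 CPM in H358 shNC libraries, against 165, 164 and 179.8 CPM in A549 shNC libraries (log2 fold change 0.36 with SE 0.06, adjusted p = 3.81e-05), and MCM2 a log2 fold change of 0.53 (adjusted p = 9.41e-05). None of these groups overlapped.

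In the control genes SLBP stood out as higher, with 146, 150.2 and 155 CPM in H358 shNC libraries, against 85.8, 78.4 and 80.9 CPM in A549 shNC libraries (log2 fold change 0.88 with SE 0.07, adjusted p = 1.1e-09). DTL was lower (log2 fold change -1.07, adjusted p = 1.36e-09). CHAF1B had 29.5, 28.1 and 29.8 CPM in H358 shNC libraries, against 45.0, 43.5 and 38.9 CPM in A549 shNC libraries (log2 fold change -0.54 with SE 0.09, adjusted p = 1.98e-05). E2F8 was lower (log2 fold change -0.39, adjusted p = 0.00164), and E2F1 was not called (log2 fold change -0.22, adjusted p = 0.115). Line and culture cannot be told apart in these libraries.

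**Figure D5:**
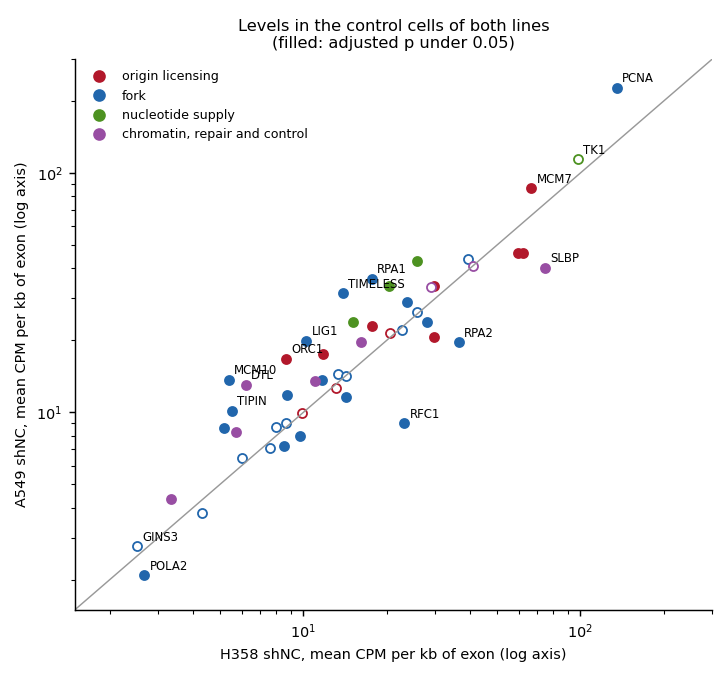
Level of the 51 genes in CPM per kilobase of exon, as means of 3 libraries, in H358 shNC (x axis) and A549 shNC (y axis), on log axes; each point is a gene and the line marks equal levels. PCNA and TK1 lie at the upper end and POLA2 and GINS3 at the lower end in both lines.

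Genes of replication outside the set were counted in the same way. Of 42 such genes, including the other origin recognition subunits, histone chaperones and factors of fork repair, 6 rose and 1 fell in the A549 knockdown, 8 rose and 0 fell in the H358 knockdown, and 8 rose and 5 fell in the overexpression. The shares over all genes were 14.4% and 10.9%, 3.78% and 4.62%, and 14.1% and 13.7%. The share of the 42 that rose in the A549 knockdown and the share that fell in the overexpression are near those of all genes. Their median log2 fold changes were 0.16, 0.11 and 0.09. SAMHD1, which hydrolyses deoxynucleotides and so opposes ribonucleotide reductase, averaged 28.7 ± 2.93 CPM in A549 shRAD21 and 18.1 ± 1.69 CPM in A549 shNC (SD, n = 3 each), log2 fold change 0.66, adjusted p = 7.13e-05. In the H358 comparison it averaged 49.9 ± 0.175 CPM in H358 shRAD21 and 35.2 ± 2.49 CPM in H358 shNC, log2 fold change 0.50, adjusted p = 0.00199. With RAD21 raised it fell, with 19.1 ± 1.60 CPM in A549 RAD21OE and 25.7 ± 1.43 CPM in A549 EV, log2 fold change -0.43, adjusted p = 0.0154. DNMT1, the maintenance methyltransferase, rose in the overexpression (log2 fold change 0.44, adjusted p = 0.00145), as did SSRP1, a subunit of the histone chaperone FACT (log2 fold change 0.35, adjusted p = 0.00514). DONSON, a factor of helicase assembly, rose in the A549 knockdown (log2 fold change 0.49, adjusted p = 0.000245) and POLD4, the smallest subunit of polymerase delta, fell (log2 fold change -0.63, adjusted p = 0.00118). ASF1B, a histone chaperone, rose in the H358 knockdown (log2 fold change 0.44, adjusted p = 0.00402).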

How the data were processed

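RNA was sequenced from 18 libraries. Per the labels' protocols, total RNA was taken with TRIzol and libraries were made with a VAHTS Universal V6 kit; selection of mRNA and strandedness are not given there. The authors deposited raw read counts by gene, as 2 tables with 12 and 6 libraries. Tools named without a role or order are featureCounts 1.5.0-p3, HISAT2 2.0.5 and fastp, with the build hg38, per the submitters' processing notes. The deposited gene lengths, an annotation column, equal GENCODE 29 for all 58735 genes. The labels' batch field gives the knockdown and the overexpression separate batches, so no level was compared across them. Columns without a sample numbered 0.

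Each table was fitted alone with 1 mean per group in R 4.3.3 and edgeR 4.0.16: filterByExpr (18939 and 15462 genes), TMM, two-sided quasi-likelihood F-test, Benjamini-Hochberg over all genes, calls at an adjusted p under 0.05. SE is the log2 fold change divided by the square root of F. CPM are counts over TMM-scaled library size; library medians add 0.5 CPM. Biological coefficients of variation were 0.0864 (knockdown table) and 0.0981 (overexpression table). P-values measure the spread between libraries, which may be technical. Alternatives were DESeq2 1.42.0 (size factors, Wald test), no filter, the replicate number as a block, lowess offsets on GC content and length (span 0.3), 1 line alone, and each library left out. Tests were tried on simulated data. Figures used matplotlib 3.10.9.

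The members and lists were chosen with earlier results of these data known. Values in every library are given for, per role and comparison, up to 3 called members in each direction with the smallest adjusted p, and for E2F1, E2F8, PCNA and MCM2; of the other lists, up to 2 genes in each direction are named. Of those lists, 1 gene that qualifies is not reported here. Other values, such as those of MCM6 and MCM5 in every comparison, and the promoters shown were chosen after their values were seen.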

Additional observations from a re-analysis of the deposited data

Results flagged for a closer look

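For 11 replication genes the response to the RAD21 knockdown differed between the lines in a contrast of the 2 knockdowns (edgeR's quasi-likelihood test, Benjamini-Hochberg over all genes). Every difference, H358 minus A549 on the log2 scale, was above 0. In licensing it was 0.65 for MCM5, 0.53 for MCM2, 0.43 for MCM3 and 0.34 for MCM7. At the fork it was 0.50 for CDC45, 0.48 for GINS4, 0.46 for FEN1, 0.42 for TIMELESS and 0.40 for GINS2. UNG differed by 0.76 and E2F1 by 0.60. The calls of MCM2, MCM3, MCM5, CDC45, FEN1, TIMELESS and UNG held under all 17 alternatives, and those of MCM7, GINS2, GINS4 and E2F1 did not. With the correction for GC content and length MCM7 was not called, with a difference of 0.11, and the others were called, with differences between 0.26 (E2F1) and 0.66 (UNG).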

How the results depend on the processing

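For single genes, 73 results gave 893 values under alternatives, of which 798 kept their side of the threshold, 83 lost a call, 12 gained one and 0 reversed. The 73 were called members with the smallest adjusted p, and E2F1, E2F8, PCNA and MCM2, a choice that makes reversals rare. Outside them, TK1 in the A549 knockdown was called lower at -0.23 without shRAD21 replicate 3. With the correction for GC content TK1 was called higher there, at 0.23. With the 6 libraries of a line fitted alone, 6 members were called in the A549 knockdown and 35 in the H358 knockdown. The correction for GC content and length gave 35 in the H358 knockdown and 18 for the difference between the lines, and medians of 0.14 for that difference and -0.042 between the control lines. With no filter on low counts the median of the difference was 0.20. Leaving out each library in turn, the members called numbered 7 to 32 in the A549 knockdown, 8 to 15 in the H358 knockdown, 2 to 23 in the overexpression, 7 to 29 for the difference and 30 to 33 between the control lines. The medians ranged between 0.07 and 0.10, 0.22 and 0.28, 0.09 and 0.16, 0.13 and 0.23, and -0.19 and -0.13 in the same order. The replicate numbers did not pair the samples (correlations of deviations between -0.09 and 0.09), and with the replicate block 14, 15, 16, 10 and 34 members were called. The cause of these changes was not tested, and the numbers called over all genes under each setting were not set beside them. Strandedness is not stated, so genes that overlap another gene are uncertain.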

Other observations

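Genes that govern entry into S phase and mitosis were followed beside the replication set. Over all genes, 14.4% rose and 10.9% fell in the A549 knockdown, 3.78% and 4.62% in the H358 knockdown, and 14.1% and 13.7% in the overexpression. Of 26 genes of G1/S control, 11 rose and 4 fell in the A549 knockdown, 7 rose and 1 fell in the H358 knockdown, and of 24 tested in the overexpression 3 rose and 3 fell (edgeR's quasi-likelihood test), the last near the shares of all genes. CDKN1B, which encodes the cyclin-dependent kinase inhibitor p27, averaged 73.6 ± 2.29 CPM in A549 shRAD21 and 37.6 ± 2.78 CPM in A549 shNC (SD, n = 3 each), log2 fold change 0.97, adjusted p = 7.89e-08. CDKN2C, another inhibitor of G1 kinases, averaged 54.1 ± 13.4 CPM in A549 shRAD21 and 20.7 ± 2.12 CPM in A549 shNC, log2 fold change 1.39, adjusted p = 6.68e-07. CDKN1A, the inhibitor p21, fell there (log2 fold change -0.57, adjusted p = 0.000147).

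Cyclin E1 (CCNE1), the cyclin that drives entry into S phase, fell in the A549 knockdown and rose in the H358 knockdown. It averaged 19.2 ± 0.547 CPM in A549 shRAD21 and 29.2 ± 0.915 CPM in A549 shNC, log2 fold change -0.61, adjusted p = 7.49e-05, and 11.6 ± 0.513 CPM in H358 shRAD21 and 8.34 ± 0.537 CPM in H358 shNC, log2 fold change 0.47, adjusted p = 0.00714. The difference between the lines was 1.08 on the log2 scale. In the H358 knockdown CCND3, a D-type cyclin, rose (log2 fold change 0.50, adjusted p = 0.00838) and the inhibitor gene CDKN2B fell (log2 fold change -0.40, adjusted p = 0.0149). With RAD21 raised CCND3 rose (log2 fold change 0.64, adjusted p = 0.000331), as did the E2F family gene E2F4 (log2 fold change 0.55, adjusted p = 0.000915), while TFDP2, a partner of E2F factors, fell (log2 fold change -0.62, adjusted p = 0.000576), as did the repressor E2F7 (log2 fold change -0.47, adjusted p = 0.00798).

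Of 25 mitosis genes, 13 rose and 0 fell in the A549 knockdown, 3 rose and 0 fell in the H358 knockdown, and 6 rose and 1 fell in the overexpression. TOP2A, the topoisomerase that untangles chromosomes, averaged 1136 ± 152 CPM in A549 shRAD21 and 787 ± 7.11 CPM in A549 shNC, log2 fold change 0.53, adjusted p = 3.82e-05. FOXM1, a transcription factor of mitotic genes, averaged 97.0 ± 1.93 CPM in H358 shRAD21 and 75.3 ± 4.32 CPM in H358 shNC, log2 fold change 0.36, adjusted p = 0.00689. In the overexpression CDC20, an activator of the anaphase-promoting complex, rose (log2 fold change 0.49, adjusted p = 0.00568) and the motor gene KIF11 fell (log2 fold change -0.32, adjusted p = 0.0461).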
